A study of Mus musculus with 9 samples.

Results

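Wnt ligands and R-spondins are secreted proteins that stromal cells use to set the strength of Wnt signalling in their neighbours and in themselves. The 10 genes described here, 7 Wnt ligands (Wnt2, Wnt4, Wnt5a, Wnt5b, Wnt10b, Wnt11 and Wnt16) and 3 R-spondins (Rspo1, Rspo2 and Rspo3), were taken by gene symbol from the 27179 genes of the matrix. All 10 passed the filter on low values and were among the 15832 genes tested. They were measured by RNA sequencing in cells sorted from the fibrous tissue that formed around a tibial implant in mice, 2 weeks after surgery. Of the 9 libraries, 5 came from Grem1 conditional knockout mice (cKO, genotype Lepr-CreERT;Tdtomato;Grem1fl/fl) and 4 from Cre-only controls, described as littermates (genotype Lepr-CreERT;Tdtomato). Both groups received tamoxifen and an implant, both carry the inducible Cre recombinase and the tdTomato reporter, and the control genotype lists no floxed Grem1 allele. Cre is driven by Lepr, the leptin receptor gene of marrow stromal cells, so only cells in which Lepr-CreERT was active lose Grem1. The sort kept lineage-negative, tdTomato-positive cells. The labels do not say whether each library came from 1 animal, and the p-values therefore reflect how these libraries vary, which may be technical in part.

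A Wnt ligand is lipid-modified by Porcn, carried to the cell surface by Wls and bound by a Frizzled receptor. Ligands acting with the co-receptors Lrp5 and Lrp6 stabilise beta-catenin, while those acting with Ror or Ryk receptors, as Wnt5a does, mainly guide cell polarity and movement. R-spondins carry no signal of their own. They bind Lgr4, Lgr5 or Lgr6 and the ubiquitin ligases Rnf43 and Znrf3, which otherwise remove Frizzled receptors, and so raise the response to Wnt ligands. In bone, stromal Wnt signalling is known for promoting osteoblast formation and restraining adipocyte and cartilage fates. Grem1 encodes a secreted antagonist of bone morphogenetic proteins, and the comparison asks how these genes differ when the LEPR lineage lacks it.

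Grem1 was lower in every cKO library (46.4 to 133 normalized counts) than in every control (356 to 736; log2 fold change -2.72, limma adjusted p = 0.00781). Lepr was detected in all 9 libraries and ranged from 1347 to 15785 in cKO libraries and from 935 to 40594 in controls. Recovered reads numbered 76.3 to 87.2 M in cKO replicates 1 to 4, 43.5 M in cKO replicate 5 and 44.8 to 53.4 M in controls, so depth and genotype largely coincide. Markers of other cells also moved with genotype. Of 17 skeletal muscle markers, 16 were higher in cKO libraries and none lower, and their summed normalized counts were 86805 to 752748 in cKO libraries and 1005 to 2806 in controls, where Mybpc2 and Cacna1s had no read. These 2 genes passed the filter on low values only through cKO libraries and could only come out higher. All 6 muscle stem cell markers were higher (sums of 16907 to 105129 in cKO libraries and 4731 to 7318 in controls). Among 10 Schwann cell markers 6 were higher (26452 to 60046 in cKO libraries, 9456 to 14289 in controls), and 9 of 15 cartilage markers were lower (228834 to 1360328 in cKO libraries, 2169437 to 4973238 in controls). Gfra3, a Schwann cell marker, had no read in controls and likewise passed the filter only through cKO libraries. Of 10 Pi16-type fibroblast markers 5 were higher (71956 to 180199.7 in cKO libraries, 34605 to 77053 in controls). Of 12 macrophage markers 1 was lower (5359 to 115051 in cKO libraries, 28616 to 64521 in controls), as were 2 of 12 endothelial markers (7734 to 12472 in cKO libraries and 9889 to 215361 in controls, where replicates 1 and 3 held 173439 and 215361). Among 10 pericyte and smooth muscle markers 2 were lower (70769 to 107955 in cKO libraries, 110034 to 163153 in controls), as was 1 of 10 tendon and fibrous tissue markers (459378 to 1157248 in cKO libraries, 1105913 to 1213955 in controls). None of 11 osteoblast markers passed (1470888 to 5223243 in cKO libraries, 2426792 to 3149256 in controls), and 1 of 10 LEPR stromal markers was higher (1418622 to 4660585 in cKO libraries, 2307549 to 2723612 in controls). Col1a1 is in both of these lists, so their sums share its counts. The mean log2(normalized count + 1) of the LEPR stromal list was 11.9 to 13.6 in cKO libraries and 12.1 to 14.5 in controls. Among all genes tested 4.61% were higher in cKO libraries and 2.87% lower by the same test. The part of all these cell types in the values below was not tested. Because each library is a bulk sample, more cells of a type cannot be told apart from more RNA per cell.

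The promoters of the 4 members with the smallest p-values are shown first, because these are the genes in which the groups were farthest apart relative to their spread. RefSeq promoter windows on build GRCm38.p6, 250 bases before to 50 after the annotated start, were found for 7 members, with 10 windows in all. The study's own build is mm39, so the positions below apply to GRCm38.p6 only. Capitals mark GGCGCC, a GC-rich sequence known to bind SMAD1 and SMAD5, the effectors of bone morphogenetic proteins; CTTTGA, the core sequence of TCF and LEF factors; and TATAAA, the TATA box. All were searched on both strands (GGCGCC reads the same on each, and CTTTGA appears as TCAAAG on the other), and no marked motifs overlap. The windows are Wnt2 at chr6:18030396-18030695 on the minus strand, Wnt4 at chr4:137277385-137277684 on the plus strand, the upstream window of Wnt11 at chr7:98834862-98835161 on the plus strand, and Rspo1 at chr4:124986180-124986479 on the plus strand.
Wnt2: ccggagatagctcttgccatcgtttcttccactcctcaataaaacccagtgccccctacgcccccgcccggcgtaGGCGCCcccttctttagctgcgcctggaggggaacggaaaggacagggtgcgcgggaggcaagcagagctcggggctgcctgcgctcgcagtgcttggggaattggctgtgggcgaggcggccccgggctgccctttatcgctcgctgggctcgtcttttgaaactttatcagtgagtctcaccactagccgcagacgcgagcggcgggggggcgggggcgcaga
Wnt4: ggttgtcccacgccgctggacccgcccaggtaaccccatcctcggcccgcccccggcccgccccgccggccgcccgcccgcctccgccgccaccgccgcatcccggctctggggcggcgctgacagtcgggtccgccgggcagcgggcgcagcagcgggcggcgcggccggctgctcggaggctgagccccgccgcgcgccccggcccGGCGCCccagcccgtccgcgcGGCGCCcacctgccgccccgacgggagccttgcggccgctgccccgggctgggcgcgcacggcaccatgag
Wnt11: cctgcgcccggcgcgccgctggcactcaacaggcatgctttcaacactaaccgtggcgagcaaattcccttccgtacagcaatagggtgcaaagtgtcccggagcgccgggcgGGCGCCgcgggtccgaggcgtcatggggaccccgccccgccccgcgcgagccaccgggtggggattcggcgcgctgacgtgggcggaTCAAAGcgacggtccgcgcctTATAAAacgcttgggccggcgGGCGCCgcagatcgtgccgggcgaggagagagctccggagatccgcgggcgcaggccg
Rspo1: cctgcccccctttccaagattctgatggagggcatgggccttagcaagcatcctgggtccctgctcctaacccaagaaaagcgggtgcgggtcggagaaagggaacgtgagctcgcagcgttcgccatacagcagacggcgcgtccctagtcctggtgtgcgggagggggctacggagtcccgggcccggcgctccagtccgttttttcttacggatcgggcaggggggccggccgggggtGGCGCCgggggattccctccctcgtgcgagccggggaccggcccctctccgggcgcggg

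GGCGCC occurred once in the Wnt2 and Rspo1 windows and at 2 places in each of the Wnt4 and Wnt11 windows. None of the other 6 windows, which belong to Wnt5b, Wnt10b, Wnt16 and a downstream start of Wnt11, held it. Of the 4 members shown, Wnt2 and Rspo1 passed the test, while Wnt4 and Wnt11 did not (limma adjusted p = 0.0995 and 0.0785). The 4 were picked by their p-values in these data, so their contrast with the other windows is not a test of the motif. Wnt5a, Rspo2 and Rspo3, none of which passed the test either, had no window, so the motif was not searched in them. Of 32851 promoter windows of the same length, 11.9% held GGCGCC, and among the 6011 with a GC content of at least 65% the share was 37.3%. The 4 windows shown have a GC content of 65.7% for Wnt2, 84.3% for Wnt4, 71.3% for Wnt11 and 69% for Rspo1. Among windows without GGCGCC, 1 of Wnt5b (78%) and that of Wnt10b (66.3%) were as GC-rich, so 4 of the 6 member windows at or above 65% held it. CTTTGA occurred once in the Wnt11 window and once in a downstream window of Wnt5b, against 16% of all windows, and TATAAA once, in the Wnt11 window, against 13.6%. A match says only that these letters are present.

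Wnt2 and Rspo1 were the members called higher in the knockout. Both were higher in all 5 cKO libraries than in all 4 controls, Wnt2 by 13.6 times and Rspo1 by 5.18 times in the ratio of mean normalized counts. Neither call was stable: of the 9 limma fits that left out 1 library, 3 kept that of Wnt2 and 2 that of Rspo1. No member fell in limma, edgeR or DESeq2 with all libraries, and none was lower at an unadjusted p under 0.05 in these fits. The remaining 8 members did not pass the test, although Wnt4 and Wnt11 were each above every control in 4 of 5 cKO libraries. Thus 2 of 10 members were called higher, beside 4.61% of all genes tested, and 0 of 10 lower, beside 2.87% (limma, Benjamini-Hochberg adjusted p under 0.05; 7.48% in either direction). At an unadjusted p under 0.05 there were 4 of 10, beside 26.9%. The groups did not overlap, with cKO above, for 2 of 10, beside 6.82% (11.4% in either direction). Their median log2 fold change was 1.01, beside -0.0039 over all genes tested. Wnt2, Wnt10b and Wnt16 each reached 10 normalized counts in only 2 of 4 controls, and in 5, 4 and 4 cKO libraries. These 3 genes therefore passed the low-value filter only with their cKO libraries. They are among the 10 behind the counts and the median above, with log2 fold changes of 5.81, 0.96 and 1.26. The median is thus not independent of the filter and is no measure of a shift of the members as a group.

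**Figure D1:**
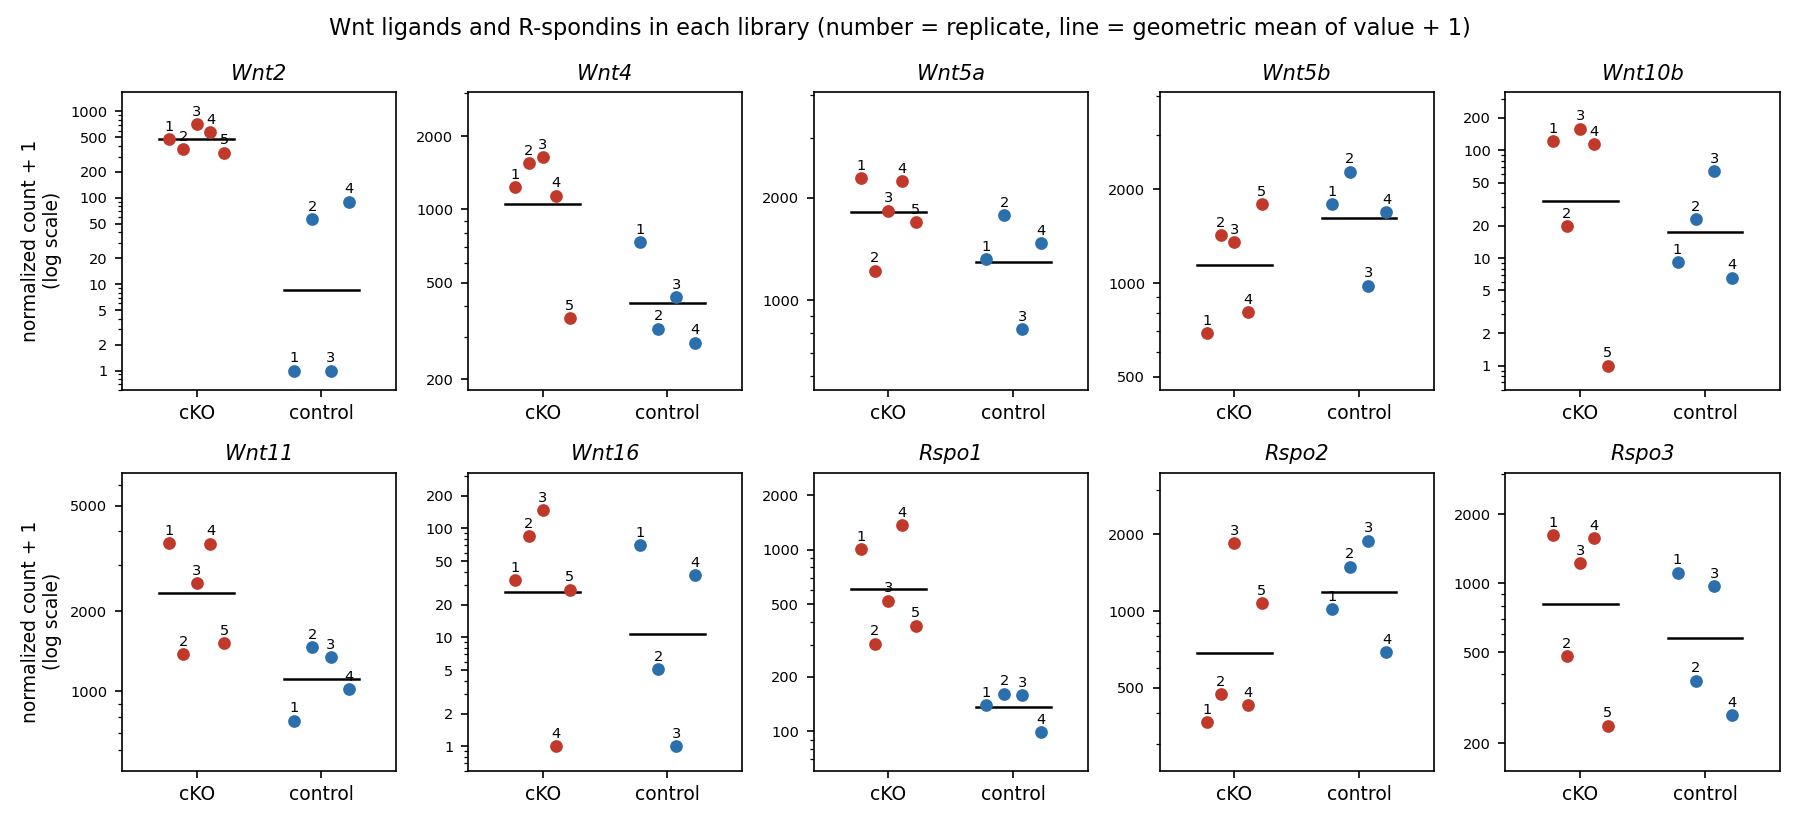
Normalized count plus 1 (log axis) of each of the 10 members in each library, cKO on the left and control on the right of each panel. Numbers are replicates and lines are geometric means of the value plus 1. Wnt2 and Rspo1 show no overlap between the groups, while cKO replicate 5 lies among the controls for Wnt4 and close above them for Wnt11.

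Wnt2 (Entrez 22413) encodes a ligand that acts through beta-catenin and is known for its role in lung and blood vessel development. It had 473, 365, 709.9, 574 and 333 normalized counts in cKO replicates 1 to 5. In control replicates 1 to 4 it had 0, 55.2, 0 and 89.4. The lowest cKO library thus lay above the highest control, and the controls themselves divided into 2 without a read and 2 with 40 and 64 reads, where 3 reads would have stood for 4.05 and 3.23 normalized counts in controls 1 and 3. The mean was 491 ± 155 in cKO libraries (SD, n = 5) and 36.2 ± 44 in controls (SD, n = 4). On the log2(normalized count + 1) scale the change was 5.81 (SE 1.38, 95% interval 2.75 to 8.87, limma adjusted p = 0.0353), a value that the 2 empty controls enlarge. An exact two-sided permutation test gave p = 0.0159, the smallest that these group sizes allow. Without controls 1 and 3 together the change was 2.73 (limma adjusted p = 0.0283). The call was lost in limma without control 1 or 3 (adjusted p = 0.0809 and 0.0763) and without any 1 of cKO replicates 1 to 4 (0.085, 0.0637, 0.0763 and 0.0856), with changes of 4.78 to 6.95 over all 9 such fits. On recovered reads the adjusted p was 0.117 in edgeR's quasi-likelihood test and 0.0127 in DESeq2.

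Rspo1 (Entrez 192199) encodes R-spondin 1, known for its part in ovary determination and as a growth factor for intestinal stem cells. Its normalized counts were 1008, 304, 523, 1366 and 381 in cKO replicates 1 to 5, against 138, 160.0, 157 and 97.8 in control replicates 1 to 4. The controls lay close together and the cKO libraries were spread over a wide range, all above them. The mean was 716 ± 455 in cKO libraries (SD, n = 5) and 138 ± 28.7 in controls (SD, n = 4), with a log2 fold change of 2.16 (SE 0.47, 95% interval 1.11 to 3.20, limma adjusted p = 0.0263, exact two-sided permutation p = 0.0159). Both count models called it (adjusted p = 0.0301 in edgeR and 4.93e-05 in DESeq2). Leaving out 1 library kept the direction (2.41 at most and 1.86 at least), but the limma call was lost in 7 of 9 such fits. In these the limma adjusted p was 0.073, 0.0512 and 0.0595 without cKO replicates 1, 3 and 4, and 0.0614, 0.0579, 0.0547 and 0.0743 without control replicates 1 to 4. Without controls 1 and 3 together it was 0.113 (change 2.27).

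Neither of the other R-spondins passed the test. Rspo2 (Entrez 239405), whose protein is needed for limb and lung development, had 366, 472, 1851, 427 and 1074 normalized counts in cKO replicates 1 to 5. In control replicates 1 to 4 it had 1020.1, 1495, 1888 and 690.3. Knockout replicates 1, 2 and 4 lay below every control, and the other cKO libraries lay inside the control range. The log2 fold change was -0.80, with a 95% interval of -1.92 to 0.32 (limma adjusted p = 0.337). Rspo3 (Entrez 72780), known from blood vessel and placenta development, had 1620.1, 481, 1223, 1569 and 238 normalized counts in cKO libraries and 1113, 375, 973 and 265 in controls. Its groups overlapped widely (log2 fold change 0.50, 95% interval -0.95 to 1.96, limma adjusted p = 0.654), and within each group the libraries split into high and low ones. In cKO replicates 1, 3 and 4 and in controls 1 and 3 the value was 973 or more, and in the other 4 libraries 481 or less.

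Of the 8 members that did not pass, Wnt4 and Wnt11 had the smallest p-values. Wnt4 (Entrez 22417), a ligand of kidney and female reproductive tract development, had 1235, 1551, 1637, 1137 and 357 normalized counts in cKO replicates 1 to 5, against 734, 323, 434 and 282 in control replicates 1 to 4. Only cKO replicate 5, the library sequenced as shallowly as the controls, lay within the control range. Its log2 fold change was 1.34 (SE 0.47, 95% interval 0.31 to 2.38), which missed the threshold (adjusted p = 0.0995 in limma; exact two-sided permutation p = 0.0476). Without cKO replicate 5 the change was 1.73 with a limma adjusted p of 0.00515. Between cKO replicate 5 alone and the 4 controls it was -0.21. DESeq2 on recovered reads gave an adjusted p of 0.0184 and edgeR 0.093.

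Wnt11 (Entrez 22411), a ligand of the beta-catenin-independent branch active in heart and kidney development, had 3610.4, 1379.7, 2551, 3596 and 1518 normalized counts in cKO libraries. The controls had 776, 1465, 1340.4 and 1021. Knockout replicate 2 lay just below the highest control and replicate 5 just above it, and the other 3 cKO libraries were well above both. The log2 fold change was 1.06 (SE 0.34, 95% interval 0.32 to 1.81, limma adjusted p = 0.0785, exact two-sided permutation p = 0.0317). Without cKO replicate 5 it was 1.22 (limma adjusted p = 0.0313), and the adjusted p was 0.0815 in edgeR and 0.014 in DESeq2. In the authors' deposited table the adjusted p was 0.0131 for Wnt2, 0.0173 for Wnt4, 0.0142 for Wnt11 and 3.34e-05 for Rspo1, and 0.268 or more for the other 6 members.

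**Figure D2:**
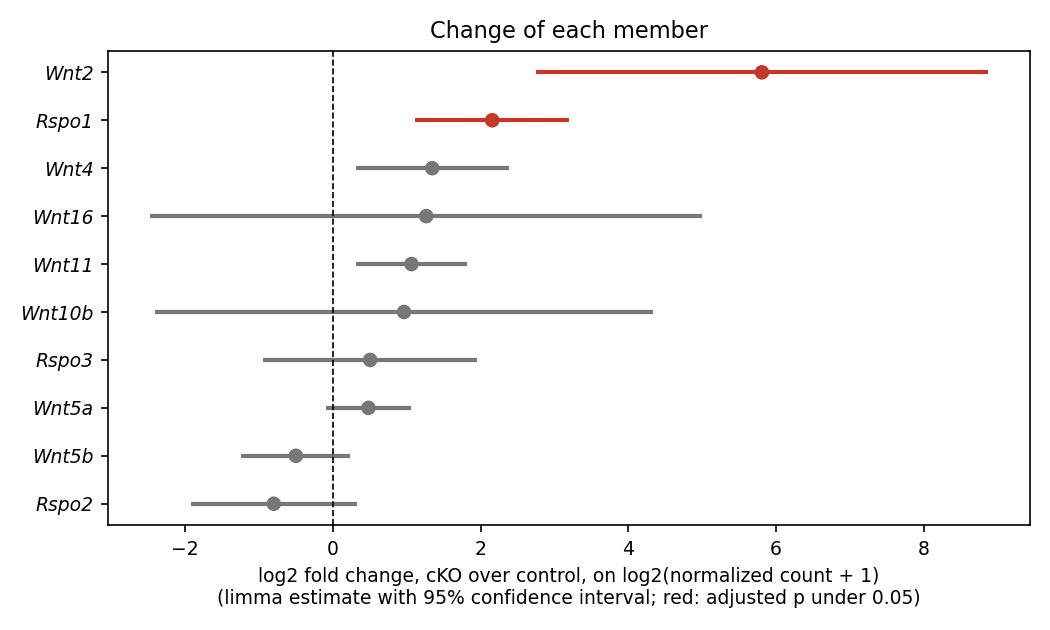
Log2 fold change of each member, cKO over control, on the log2(normalized count + 1) scale, with the 95% confidence interval from limma. Red marks an adjusted p under 0.05 over all genes tested, reached by Wnt2 (5.81) and Rspo1 (2.16). The intervals of Wnt4 and Wnt11 also lie above 0, and those of the other 6 members include it.

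Wnt5a and Wnt5b, close relatives that act mainly outside the beta-catenin branch and regulate limb outgrowth and cartilage maturation, had estimates of opposite sign and neither passed. Wnt5a (Entrez 22418) had 2285, 1221, 1832, 2239.9 and 1691 normalized counts in cKO libraries and 1321, 1773, 819 and 1473 in controls (log2 fold change 0.48, 95% interval -0.09 to 1.05, limma adjusted p = 0.259). Wnt5b (Entrez 22419) had 688, 1427, 1351, 805 and 1790.4 in cKO libraries and 1789, 2279, 979.7 and 1694 in controls (log2 fold change -0.50, 95% interval -1.24 to 0.24, limma adjusted p = 0.36). For both genes the groups overlapped. Wnt5b was lowest in cKO replicates 1 and 4, the libraries with the highest Wnt11 and Rspo1.

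Wnt10b and Wnt16 were the members with the fewest reads. Wnt10b (Entrez 22410), a ligand known to favour osteoblasts over adipocytes, had 120.0, 18.8, 158, 113 and 0 normalized counts in cKO libraries and 8.11, 22.1, 63.5 and 5.59 in controls. Knockout replicates 1, 3 and 4 lay above every control and replicate 5 had no read, a limit of 3.97 normalized counts at 3 reads (log2 fold change 0.96, 95% interval -2.41 to 4.33, limma adjusted p = 0.717). Wnt16 (Entrez 93735), known for maintaining cortical bone, had 32.4, 84.1, 146, 0 and 26.4 in cKO libraries and 68.9, 4.14, 0 and 36.3 in controls, where 4.14 stands for 3 reads. One library in each group had none, and the groups overlapped throughout (log2 fold change 1.26, 95% interval -2.47 to 5.00, limma adjusted p = 0.663). For both genes the interval spans differences of several-fold in either direction. Libraries of like depth differed widely: Wnt10b had 163, 28, 233 and 156 reads in cKO replicates 1 to 4.

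Divided by exon length (GENCODE vM21 union of exons, 1.94 to 7.82 kb for the 10 genes), the members could be ordered by level. In cKO libraries Wnt11 came first with 612 ± 261 normalized counts per kb (SD, n = 5), then Wnt5b (457 ± 173), Rspo1 (369.6 ± 235), Rspo3 (332 ± 205), Wnt4 (282 ± 121), Wnt5a (237 ± 55.8), Wnt2 (218 ± 68.7), Rspo2 (164 ± 124), Wnt10b (24.1 ± 20.2) and Wnt16 (13.3 ± 13.3). In controls Wnt5b came first with 635 ± 202 per kb (SD, n = 4), then Wnt11 (278 ± 75.4), Rspo2 (249 ± 103), Rspo3 (221 ± 137), Wnt5a (172 ± 50.9), Wnt4 (106 ± 48.6), Rspo1 (71.3 ± 14.8), Wnt2 (16 ± 19.5), Wnt10b (7.3 ± 7.88) and Wnt16 (6.27 ± 7.37). In cKO libraries the mean ± SD ranges of all neighbours in the order overlapped. In controls they overlapped except at the steps from Wnt5b to Wnt11 and from Rspo1 to Wnt2. With the longest transcript in place of the exon union, Rspo2 moved above Wnt2 in cKO libraries and above Wnt11 in controls.

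As a share of the summed level per kb of the 3 R-spondins, Rspo1 made up 46.6%, 38.7%, 26.3%, 54.4% and 40.6% in cKO replicates 1 to 5, against 11.3%, 16.6%, 10.6% and 18.6% in control replicates 1 to 4. The lowest cKO share was above the highest control share, replicate 5 included. Rspo2 made up 6.41% to 43.4% in cKO libraries and 31.6% to 58.9% in controls, and Rspo3 15.9% to 47% in cKO libraries and 24.5% to 57.1% in controls. Within the 7 Wnt ligands, Wnt2 held 9.87% to 14.7% of the sum per kb in cKO libraries and 0% to 3.33% in controls. Wnt5b held 13.2%, 34%, 23.7%, 15% and 45.1% in cKO replicates 1 to 5 and 40.1% to 55.5% in controls, so that only replicate 5 lay in the control range. Wnt5a made up 9.85% to 14.8% in cKO libraries and 11.4% to 15.8% in controls. These shares restate the members' levels and carry no test.

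**Figure D3:**
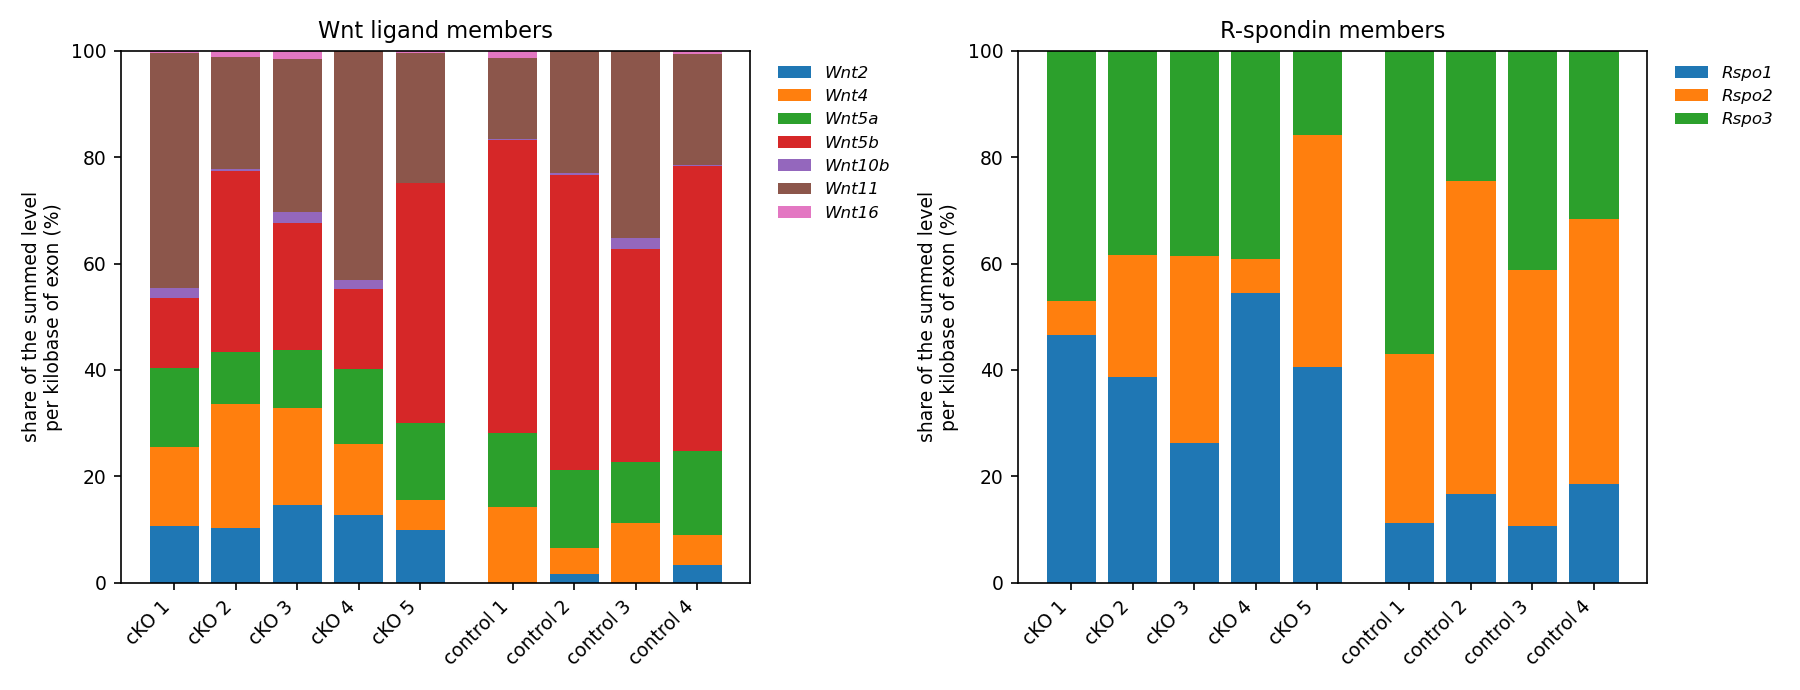
Share (percent) of each member in the summed level per kilobase of exon of the 7 Wnt ligands (left) and the 3 R-spondins (right), 1 bar per library, cKO libraries left of controls. Rspo1 takes 26.3% to 54.4% of the R-spondin bars in cKO libraries and 10.6% to 18.6% in controls. Wnt5b fills the largest part of each control bar in the left panel.

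The genes whose profile over the 9 libraries was most like that of Rspo1 were Scara5 (a scavenger receptor for ferritin), Tpbgl and Bdh2, with root mean square differences of 0.40, 0.41 and 0.44 log2 units after centring, among 13387 genes. Scara5 had 32768, 12347, 24365, 32221 and 13207 normalized counts in cKO libraries and 3026, 3050.0, 4398 and 3143 in controls. For Wnt2 the nearest were Cspg4b (0.46), Lingo3 (0.71) and Apc2 (0.74). All 3 had no read in controls 1 and 3 and some in controls 2 and 4, as Wnt2 did, so these zeros weigh heavily in the measure.

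Of the other 12 Wnt genes and Rspo4, 7 of 13 passed the low-value filter and 1 rose, Wnt6. Among all genes tested 4.61% rose and 2.87% fell, the shares to set beside the counts of this list and those below. Wnt6, a ligand of epithelial and kidney tubule development, had 508, 302, 1509, 467 and 204 normalized counts in cKO libraries and 73, 35.9, 68.9 and 41.9 in controls (log2 fold change 3.13, SE 0.57, limma adjusted p = 0.0152). No leave-out of 1 library removed its call. Without cKO replicate 3, the highest, the cKO libraries still lay at 204 or above. Wnt9a, a ligand of joint formation, also did not overlap between groups, with 3974, 2387, 3908, 3118 and 2013 in cKO libraries and 1740.2, 1735, 1323 and 1987 in controls, but missed the threshold (log2 fold change 0.82, limma adjusted p = 0.053). Its level per kb was 925 ± 265 in cKO libraries (SD, n = 5) and 509.6 ± 82.7 in controls (SD, n = 4). Wnt10a had a log2 fold change of 1.42 (limma adjusted p = 0.0907). Wnt3a, Wnt8a and Wnt8b had no read in any library. Over the list the median log2 fold change was 1.42 among the 7 genes tested, beside -0.0039 over all genes tested. Wnt1, Wnt2b, Wnt7b and Rspo4 reached 10 normalized counts in 1, 1, 2 and 3 of 4 controls. Each of them passed the low-value filter only with cKO libraries, so the median of this list is not independent of the filter. Their log2 fold changes were 3.55, 3.42, 0.71 and 1.38. Wnt7b and Rspo4 nevertheless had lower means in cKO libraries (51.1 and 239) than in controls (112 and 279).

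Of 15 genes of Wnt lipidation, export and release, 1 rose and none fell, with a median log2 fold change of -0.22. This was Gpc3, a cell-surface heparan sulphate proteoglycan that binds Wnt ligands, with 21034, 12854, 11799, 20563 and 4066 normalized counts in cKO libraries and 1489, 515, 1247 and 521 in controls (log2 fold change 3.85, SE 0.51, limma adjusted p = 0.00379). Wls had 14562 ± 2713 in cKO libraries and 16835 ± 2310.5 in controls (log2 fold change -0.22, limma adjusted p = 0.399), and Porcn had a log2 fold change of 0.19 (limma adjusted p = 0.761).

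Receptors changed in both directions. Of 19 Frizzled receptors and co-receptors 2 rose and 3 fell, with a median log2 fold change of -0.066. Fzd9, a Frizzled gene needed for normal osteoblast function, had 867, 801, 579.7, 538 and 1903 normalized counts in cKO libraries and 5626, 6442, 4577 and 6435 in controls (log2 fold change -2.77, SE 0.33, limma adjusted p = 0.00258). Every cKO library was below every control, replicate 5 least so. Ptk7, a planar polarity co-receptor, fell as well (log2 fold change -1.01, limma adjusted p = 0.0213), as did Fzd6, a Frizzled of planar polarity (-2.08, limma adjusted p = 0.0439), with 682 in cKO replicate 5 above the lowest control, 556. Musk, the muscle-specific kinase of the neuromuscular junction, which has a Frizzled-like domain, had 1987, 1626, 2981, 1469 and 461 in cKO libraries and 279.7, 81.4, 166 and 157 in controls (log2 fold change 3.21, limma adjusted p = 0.00955). It rose beside the muscle markers given above, whose part in it was not tested. Fzd10 had 297, 101, 212, 241 and 42.3 in cKO libraries and 0, 0, 86.1 and 2.79 in controls (log2 fold change 5.11, limma adjusted p = 0.0466, edgeR adjusted p = 0.272), so replicate 5 lay below control 3. The ratio of its means was 8.04, its log2 fold change was 4.41 to 6.56 without 1 library, and 1 of 4 controls reached 10 normalized counts, so that it passed the low-value filter through cKO libraries. The limma calls of Fzd10 and Fzd6 were kept in 2 of 9 fits that left out 1 library and that of Ptk7 in 4 of 9, with adjusted p up to 0.113, 0.106 and 0.0613, while those of Fzd9 and Musk were kept in 9 of 9. Ror1 (log2 fold change 1.56, limma adjusted p = 0.0677) and Ror2 (-0.70, limma adjusted p = 0.104), the Wnt5a receptors, did not pass.

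Among the 5 R-spondin receptors and Frizzled ubiquitin ligases, 1 fell and none rose. Lgr6, an R-spondin receptor, had 797, 763, 612, 461 and 735 normalized counts in cKO libraries and 1878, 2098, 1569 and 1660.0 in controls. The groups did not overlap and replicate 5 lay among the other knockouts (log2 fold change -1.44, SE 0.20, limma adjusted p = 0.00468). The call held in 9 of 9 fits without 1 library. Lgr4, an R-spondin receptor needed for normal bone formation, had 2968 ± 849 in cKO libraries and 2731 ± 513 in controls (log2 fold change 0.074, 95% interval -0.51 to 0.66, limma adjusted p = 0.88). Lgr5, Znrf3 and Rnf43 had log2 fold changes of -0.75, 0.27 and -1.37 with limma adjusted p of 0.503, 0.75 and 0.477.

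Of 13 secreted Wnt antagonists, 11 were tested, 3 rose and 1 fell (median log2 fold change 0.10). Frzb, a Frizzled-related decoy of cartilage, had 1078, 1140.1, 1368, 1831 and 1726 normalized counts in cKO libraries and 7436, 8389.8, 6414 and 7526 in controls (log2 fold change -2.41, SE 0.18, limma adjusted p = 0.000353). It fell beside the cartilage markers given above, whose part in it was not tested. Sfrp4, another Frizzled-related decoy, had 14352, 16283, 16399, 12216 and 9941 in cKO libraries and 6550.1, 4858, 8920.0 and 5065 in controls (log2 fold change 1.14, limma adjusted p = 0.0157). Both kept their calls in 9 of 9 fits without 1 library. Dkk1, an inhibitor of Lrp5 and Lrp6, rose with 243, 1907, 919, 413 and 212 in cKO libraries and 40.5, 157, 0 and 11.2 in controls (log2 fold change 4.95, limma adjusted p = 0.0494). Sostdc1, which inhibits both Wnt and bone morphogenetic protein signalling, had 1814, 564, 1148, 1744 and 29.1 in cKO libraries and 35.1, 27.6, 0 and 0 in controls (log2 fold change 6.66, limma adjusted p = 0.0325), with replicate 5 inside the control range. Dkk1 kept its call in 2 of 9 fits without 1 library (log2 fold change 3.59 to 6.03, adjusted p up to 0.109), had a ratio of means of 14.1 and was not called by edgeR (adjusted p = 0.109). Sostdc1 kept its call in 3 of 9 (log2 fold change 5.83 to 7.72, adjusted p up to 0.0876), had a ratio of means of 67.6 and was not called by edgeR (adjusted p = 0.0503). Dkk1 and Sostdc1 reached 10 normalized counts in 3 and 2 of 4 controls, so both passed the low-value filter only with cKO libraries.

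**Figure D4:**
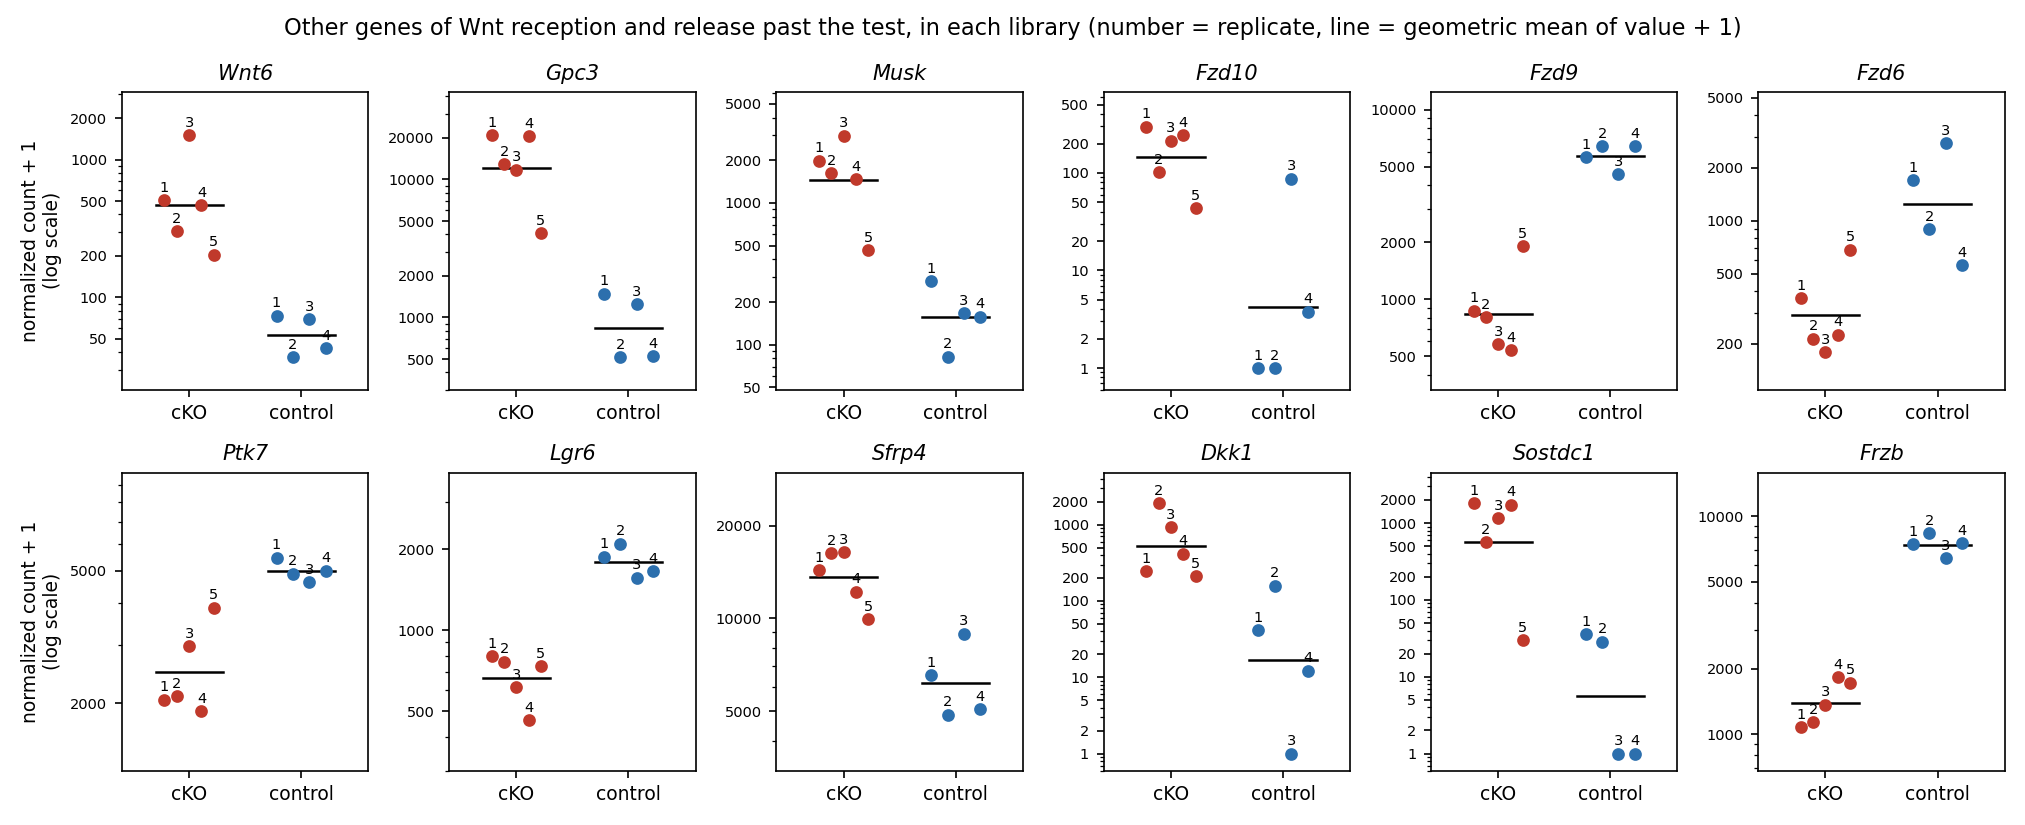
Normalized count plus 1 (log axis) in each library for 12 other genes past the test, cKO on the left and control on the right of each panel. They are the ligand Wnt6 and genes of Wnt release, reception and antagonism. Numbers are replicates and lines are geometric means of the value plus 1. Fzd9, Ptk7, Lgr6 and Frzb are lower in all 5 cKO libraries than in all 4 controls, and Wnt6, Gpc3, Musk, Sfrp4 and Dkk1 are higher.

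Among 18 intracellular components 1 rose and 1 fell (median log2 fold change 0.017). Lef1, a transcription factor that binds beta-catenin and is also a target gene, had 443, 462, 312, 335 and 279 normalized counts in cKO libraries and 2285, 928, 796 and 1137 in controls (log2 fold change -1.71, SE 0.33, limma adjusted p = 0.0173). It kept its call in 9 of 9 fits without 1 library. Amer1, a scaffold of the complex that degrades beta-catenin, rose (log2 fold change 1.04, limma adjusted p = 0.0356) and kept its call in 2 of 9, with adjusted p up to 0.0912. Of 19 feedback and target genes, 18 were tested, 2 rose and 1 fell (median 0.14): Dkk1 and Myc (log2 fold change 0.85, limma adjusted p = 0.0301, kept in 2 of 9 with adjusted p up to 0.0816) rose and Lef1 fell. Axin2, the most widely used target gene of beta-catenin signalling, had 194, 262, 257, 237 and 103 normalized counts in cKO libraries and 193, 163, 108 and 86.6 in controls. Its groups overlapped (log2 fold change 0.61, 95% interval -0.35 to 1.56, limma adjusted p = 0.397). In the list of 20 planar polarity and noncanonical components none rose and 2 fell (median -0.12), Ptk7 and Nfatc1, a calcium-regulated transcription factor (log2 fold change -0.83, limma adjusted p = 0.0445), which kept its call in 1 of 9, with adjusted p up to 0.105. Over all 8 lists, 101 distinct genes were tested, of which 9 rose and 7 fell, beside 4.61% and 2.87% of all genes tested.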

How the data were processed

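Polyadenylated RNA of lineage-negative, tdTomato-positive cells was sequenced in 5 cKO and 4 control libraries, grouped by their titles. The authors deposited a signal, the counts of each gene after division by a library's size factor (normalized counts), for 27179 Entrez IDs. STAR, featureCounts, DESeq2 and build mm39 are named in the submitters' processing notes; annotation and strand setting were not given in the sources used here. A deposited table of the authors' comparison holds, per the file headers, a mean signal, log2 fold changes with standard errors, a score and p-values; values from it are quoted as theirs. Symbols came from an NCBI table of GRCm38.p6 (25275 IDs matched).

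The test was limma 3.58.1 in R 4.3.3 (eBayes, trend) with genotype alone, on log2(normalized count + 1) of genes of at least 10 normalized counts in at least 4 libraries, two-sided, Benjamini-Hochberg adjusted over 15832 genes, threshold 0.05. Fold changes are on this scale and compare geometric means. A larger pseudocount lowers those of genes at 0 in some libraries of 1 group (Wnt2: 6.31, 5.81 and 4.62 on the log2 scale at 0.5, 1 and 5), and such zeros can also make the fold exceed the ratio of means. Intervals are limma's 95% confidence intervals. Single members were also tested by exact permutation of the libraries (two-sided, scipy 1.17.1). Values were whole multiples of a step (tolerance 0.01 of a read; at least 99.99% in each library), giving recovered reads for depth, edgeR 4.0.16 and DESeq2 1.42.0. Those and floors of 3 reads cover counting error only. The procedure was tested on simulated data.

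The members, lists, tests and alternatives were chosen with earlier results of these data known. Named genes were all members, Grem1, Lepr, in each list up to 4 passing genes in each direction, and for members past the test the 3 genes of nearest profile with a mean of at least 50; other genes named were picked after their values were seen. Same-numbered libraries are not stated to share an animal, and their deviations from the group means did not correlate (-0.011 to 0.07 for the 4 pairs). Without a strand setting, reads of an antisense gene cannot be separated: on GENCODE vM21 such genes overlap 4.58% of the exon bases of Wnt5a, 8.8% of Wnt11 and 13.1% of Rspo3. A list is described by its counts and median; no list was tested as a set.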

Additional observations from a re-analysis of the deposited data

Results flagged for a closer look

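Dixon's test, which chance flags in about 1 of 20, was run on 56 groups of 4 or 5 libraries. These were the groups of the 10 members, Grem1, Lepr and the pathway list genes past the test. The other genes of the Wnt pathway lists were not examined. The test flagged 3 of the 56 groups, which is near the share that chance gives. In these 3, each of another gene, 1 library lay far from the others of its group. Wnt6 stood at 1509 normalized counts in cKO replicate 3, against 204 to 508 in the other 4 cKO libraries. Fzd10 had 86.1 in control replicate 3, against 0 to 2.79 in the other 3 controls. Fzd9 had 1903 in cKO replicate 5, against 538 to 867 in the other 4 cKO libraries. None of the 10 Wnt ligand and R-spondin members was flagged.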

How the results depend on the processing

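Wnt2 kept its direction under all 24 alternatives and Rspo1 under 23. With pseudocounts of 0.5 and 5, other filters, TMM or upper-quartile scaling, 2 members were called higher, as in the main test. Under no alternative was a member called lower. With the replicate block, however, 1 member was lower and 4 higher at an unadjusted limma p under 0.05. The same counts arose without cKO replicate 3 and without control replicate 3. They were 1 and 1 with the cartilage list as a covariate, and 2 and 6 with library quality weights. Without 1 library the members called higher numbered 0 to 4, all genes called 377 to 3562, and pathway genes called 4 to 16 higher and 4 to 13 lower; the highest value of each came without cKO replicate 5. Without controls 1 and 3 together the counts were 1 member, 338 genes, and 4 and 4 pathway genes. DESeq2 called 4 members higher, 2539 genes in either direction, and 15 and 10 pathway genes higher and lower; edgeR called 1, 786, and 5 and 5. Library quality weights gave 4 members, 4056 genes, and 17 and 13 pathway genes. The replicate block gave 3 members, 2702 genes, and 14 and 11 pathway genes, with Wnt4 at an adjusted p of 0.0167; 1 of 4 cKO libraries correlated best with its own number.

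With only the libraries under 60 M reads, 0 members, 83 genes, and 0 and 1 pathway genes passed, and Wnt4 (-0.21), Wnt5b (0.15), Wnt10b (-4.11), Rspo3 (-1.26) and Lepr (-2.54) reversed; Wnt2 was at 5.31 and Rspo1 at 1.48. With the macrophage list as a covariate 0 members, 87 genes, and 0 and 1 pathway genes passed, and Wnt10b (-0.46) and Rspo3 (-0.24) reversed. With the cartilage list as a covariate 0 members, 3 genes and 0 pathway genes passed, and Wnt4 (-0.28), Wnt5b (0.043), Wnt10b (-4.49), Wnt16 (-0.28), Rspo3 (-1.45) and Lepr (-2.85) reversed. With skeletal muscle markers as a covariate 0 genes passed (390 at an unadjusted p under 0.05), and Wnt4 (-0.21), Wnt5a (-0.65), Wnt5b (0.62), Wnt10b (-6.82), Wnt11 (-1.01), Rspo1 (-1.14), Rspo2 (1.11), Rspo3 (-2.88), Ptk7 (0.37), Sostdc1 (-5.87), Dkk1 (-0.0047), Amer1 (-0.58) and Lepr (-5.93) reversed. The muscle and cartilage levels did not overlap between the groups, and the cause of these changes was not tested. Wnt2 lost its call under each covariate, at log2 fold changes of 6.46 with cartilage, 5.60 with skeletal muscle and 5.09 with macrophage markers. With the libraries under 60 M reads, cKO replicate 5 alone stood against 4 controls and was assumed to vary as they do. Lepr, never called, also reversed in DESeq2 (-0.61) and edgeR (-0.63) and ran over -0.96 to 0.86 without 1 library. The size of 1 read was 0.673 to 1.4 normalized counts.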
